A study of Mus musculus with 6 samples.

Results

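The genes Kcnd1, Kcnd2 and Kcnd3 encode the Kv4 potassium channels, and Kcnip1, Kcnip2, Kcnip3, Kcnip4 and Dpp6 encode proteins that assemble with them. Every probe set whose platform annotation names 1 of these 8 genes alone, by its current or an older symbol, was taken. This gave 13 of the 36701 probe sets on the 3 array designs A, B and C, with 5 on A, 4 on B and 4 on C. Male C57BL/6 mice aged 11 to 18 weeks gave the RNA, which came from tissue around the anterior interpositus nucleus, an output nucleus deep in the cerebellum. All mice had wires implanted in the left eyelid and, after 3 days of recovery, 7 days of training with a 352 ms tone and a 100 ms periorbital shock. For the paired group, the shock began 252 ms into the tone and both ended together, whereas the unpaired group received them apart, in pseudorandom order. The labels give 10 to 30 minutes for the sampling of both groups. Each group was 1 pool of 10 to 15 nuclei on the same side as the implanted eye, taken with syringe needles, and each pool has 1 array per design, as far as the labels tell. The labels leave unsaid if those 3 arrays shared one RNA preparation. With no replicate array, no difference between the pools has a test, a p-value or a standard error, and each value below is a measurement of these pools.

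Kv4 channels carry a fast, transient potassium current, called A-type, that opens below the firing threshold and delays or spaces action potentials. In neurons they work as complexes. The KChIPs are small calcium-binding proteins that attach to the inner end of the channel, bring it to the membrane and change how fast it inactivates and recovers. Dpp6 is a membrane protein related to a peptidase but without its activity, and it speeds the opening and closing of the channel. In the cerebellum Kcnd2 (Kv4.2) is best known from granule cells and Kcnd3 (Kv4.3) from molecular layer interneurons.

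RefSeq (GRCm38.p6) start regions, from 250 bases before to 50 bases after a transcript start, were found for 7 of the 8 genes, 14 regions in all, and Kcnd1 was not matched. Kcnd2, Kcnd3 and Kcnip2 had 1 start region each, Kcnip4 had 2, and Kcnip1, Kcnip3 and Dpp6 had 3 each. The outermost starts lay 686 kb apart in Kcnip4, 445 kb in Dpp6, 313 kb in Kcnip1 and 39.6 kb in Kcnip3. Probe sets of these designs were made mainly against the end of a transcript, and the values do not tell from which start a transcript came. The regions below belong to the Kv4 gene and the KChIP genes with the largest differences between the pools, and show how unlike the starts are. Capitals mark CpG dinucleotides.
Kcnd2, chr6:21215096-21215395, plus strand: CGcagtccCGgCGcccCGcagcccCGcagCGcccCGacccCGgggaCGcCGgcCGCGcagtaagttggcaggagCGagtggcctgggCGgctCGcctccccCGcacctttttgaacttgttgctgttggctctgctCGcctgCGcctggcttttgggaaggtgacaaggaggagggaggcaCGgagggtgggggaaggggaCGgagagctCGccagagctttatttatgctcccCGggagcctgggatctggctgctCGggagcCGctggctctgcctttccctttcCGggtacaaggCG
Kcnip2, chr19:45816014-45816313, minus strand: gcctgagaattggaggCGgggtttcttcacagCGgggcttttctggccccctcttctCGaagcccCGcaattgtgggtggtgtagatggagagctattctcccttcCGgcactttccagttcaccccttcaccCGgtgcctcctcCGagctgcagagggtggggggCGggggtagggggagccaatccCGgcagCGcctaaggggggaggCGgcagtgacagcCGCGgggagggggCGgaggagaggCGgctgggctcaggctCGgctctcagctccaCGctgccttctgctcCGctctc
Kcnip4 outer start, chr5:49285610-49285909, minus strand: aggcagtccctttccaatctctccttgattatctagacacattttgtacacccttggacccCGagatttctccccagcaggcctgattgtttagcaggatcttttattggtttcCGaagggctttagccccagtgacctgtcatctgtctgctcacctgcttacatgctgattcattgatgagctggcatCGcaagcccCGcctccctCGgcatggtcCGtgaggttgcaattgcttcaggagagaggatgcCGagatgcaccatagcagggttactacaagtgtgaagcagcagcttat
Kcnip4 inner start, chr5:48599633-48599932, minus strand: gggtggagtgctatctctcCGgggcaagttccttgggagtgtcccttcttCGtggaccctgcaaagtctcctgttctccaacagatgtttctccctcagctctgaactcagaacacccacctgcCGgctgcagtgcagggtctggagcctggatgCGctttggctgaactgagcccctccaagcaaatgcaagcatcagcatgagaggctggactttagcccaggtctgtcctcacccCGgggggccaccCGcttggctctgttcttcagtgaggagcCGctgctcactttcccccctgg
The Kcnd2 region held 26 CpG dinucleotides and the Kcnip2 region 18, while both Kcnip4 regions held 7, the median of all 32851 start regions. The cyclic AMP response element TGACGTCA, present on either strand in 1.79% of all start regions, was in none of the 14 regions, nor was its shorter core TGACG, present in 20.8%. The E-box CACGTG, present in 7.15%, was not found in them either. The TATA box letters TATAAA, present on either strand in 13.6%, were found in 1 region, of Dpp6. There they lay on the strand opposite to the transcript. These are matches of letters and no measure of binding.

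Signals are log2 values. The paired array of each design was shifted by at most 0.010 so that the typical bright probe set showed no difference. A probe set was kept for differences when its mean signal in the pools reached the median of its design, which was 4.82 on A, 4.32 on B and 3.02 on C. A difference is the paired minus the unpaired log2 signal, and it was counted as large when it passed 1.5-fold, 0.58 on the log2 scale, either way. Of the 13 probe sets 9 were kept, and each of the 8 genes had at least 1. None of the 9 passed 1.5-fold, where 0.681% of all 18351 kept probe sets did (125, of which 64 were higher and 61 lower in the paired pool). The largest difference was that of Kcnd2, lower in the paired pool by a factor of 1.43, and 275 of all kept probe sets differed more.

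**Figure D1:**
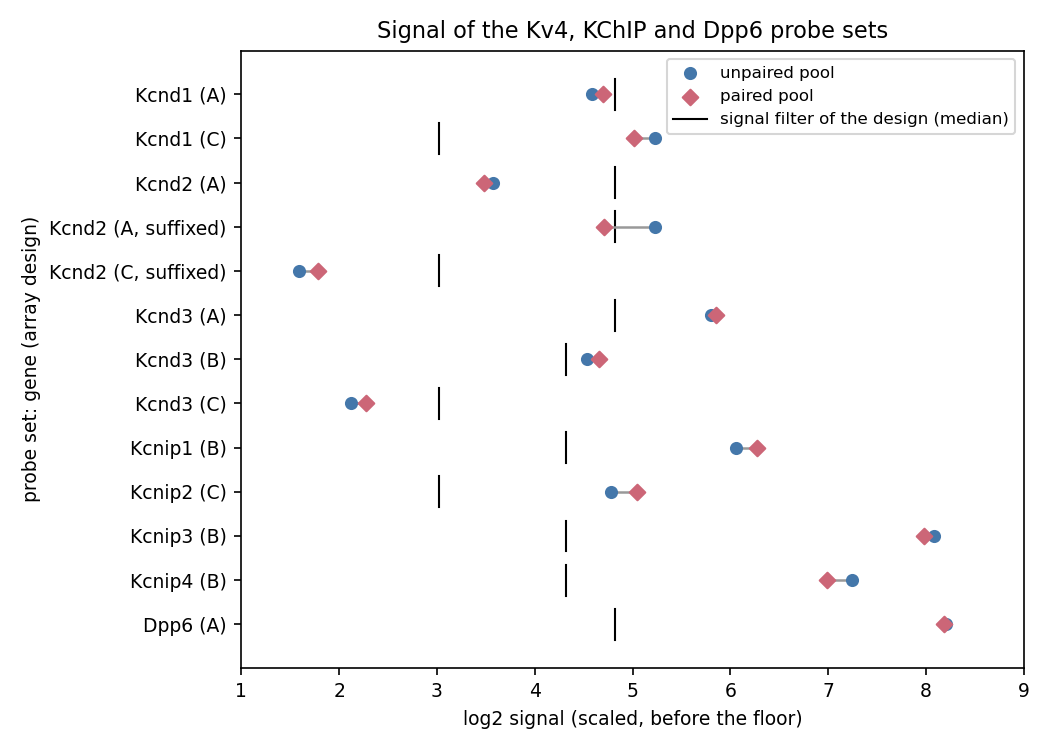
Log2 signal of the 13 probe sets of the 8 genes in the unpaired (circles) and paired (diamonds) pool, 1 array each, with the array design in brackets. Black bars mark the median of the design, which was the signal filter. The suffixed Kcnd2 probe set on design A spans the filter, from 5.23 (unpaired) to 4.71 (paired), while all 4 KChIP probe sets and that of Dpp6 lie above it in both pools.

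Among the channel genes, Kcnd2 had 3 probe sets, of which 1 was kept. On design A its log2 signal went from 5.23 (unpaired) to 4.71 (paired), a difference of -0.52. Its rank was 56.9% unpaired and 47.7% paired, as a share of the probe sets of the design at or below it, so the paired signal was under the signal filter of 4.82 and the probe set passed through the unpaired pool. It carries the suffix r, which marks probes chosen with relaxed rules. The other Kcnd2 probe set on design A, without a suffix, read 3.57 unpaired and 3.48 paired, a difference of -0.09 at a rank of 29.2%. A suffixed one on design C was below the floor, the 25th percentile of the design, in both pools (1.59 and 1.78), and gives no direction. The size of the Kcnd2 difference therefore rests on 1 suffixed probe set near the filter.

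Kcnd3, the Kv4.3 channel gene, differed little on the designs where it was kept. Design A gave log2 signals of 5.80 unpaired and 5.86 paired, a difference of 0.05. On design B the signals were 4.54 and 4.66, a difference of 0.12. The third probe set, on design C, was under the filter and below the floor of 2.25 in the unpaired pool, with 2.12 against 2.27, and shows no level there. The mean difference over the kept pair was 0.09, or 1.06-fold.

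Kcnd1 encodes Kv4.1, the third channel of the family, and its probe sets pointed opposite ways. On design C the log2 signal was 5.23 unpaired and 5.02 paired, a difference of -0.21 at a rank of 80.7%. On design A it was 4.59 and 4.69, a difference of 0.10, with a mean signal of 4.64 just under the filter of 4.82. Averaged with no signal filter, Kcnd1 stood at -0.05, within the spread of a single difference given below.

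The KChIP genes had 1 probe set each, and all 4 were kept, with ranks between 78.5% and 97.8% of their design. A rank sets a probe set among the others of its design and does not order the amounts of different transcripts. Kcnip1 read 6.06 unpaired and 6.27 paired on design B, a difference of 0.21. Kcnip2, known for its part in the transient current of heart muscle as well as neurons, read 4.78 and 5.05 on design C, a difference of 0.27. Both were higher in the paired pool.

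Kcnip3 and Kcnip4 were lower in the paired pool. Kcnip3 encodes a protein also known as calsenilin or DREAM, which binds presenilins and can repress transcription from DNA sites in a calcium-dependent way. It had the highest rank of all members, 97.9% unpaired and 97.7% paired on design B, with log2 signals of 8.08 and 7.98 and a difference of -0.10. Kcnip4, some forms of which slow the inactivation of Kv4 channels, read 7.25 and 6.99 on the same design, a difference of -0.26 or 1.19-fold. The family thus split evenly, with 2 genes higher and 2 lower, and all 4 differences were below 1.5-fold.

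Dpp6 gave the smallest difference of the kept probe sets. Its single probe set, on design A at a rank of 93.3%, read 8.21 unpaired and 8.19 paired, a difference of -0.02. Its sign turned under quantile and loess scaling, where the highest value was 0.021. Dpp10, a close relative of Dpp6 that also joins Kv4 complexes, had 1 suffixed probe set on design C, with 2.74 unpaired and 2.13 paired. Its mean signal lay under the filter of 3.02, and the paired signal lay under the floor.

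The array gives 1 yardstick for error without replicates, the scatter of probe sets of like brightness. For each member the SD of the differences was taken over the 500 probe sets nearest in signal on its design. It was 0.21 around the kept Kcnd2 probe set, 0.18 around Kcnip4, 0.19 around Kcnip1 and Kcnip3, 0.20 around Kcnip2 and 0.16 around Dpp6. In these SDs, Kcnd2 lay at -2.45, Kcnip4 at -1.39, the kept Kcnd1 probe set at -1.10, Kcnip2 at 1.34 and Kcnip1 at 1.11. The Kcnd2 probe set was kept through its unpaired signal alone, so its place in this scatter is not support for a difference. This scatter holds array and probe error together with any real differences among those probe sets, and does not include the spread between pools of mice.

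**Figure D2:**
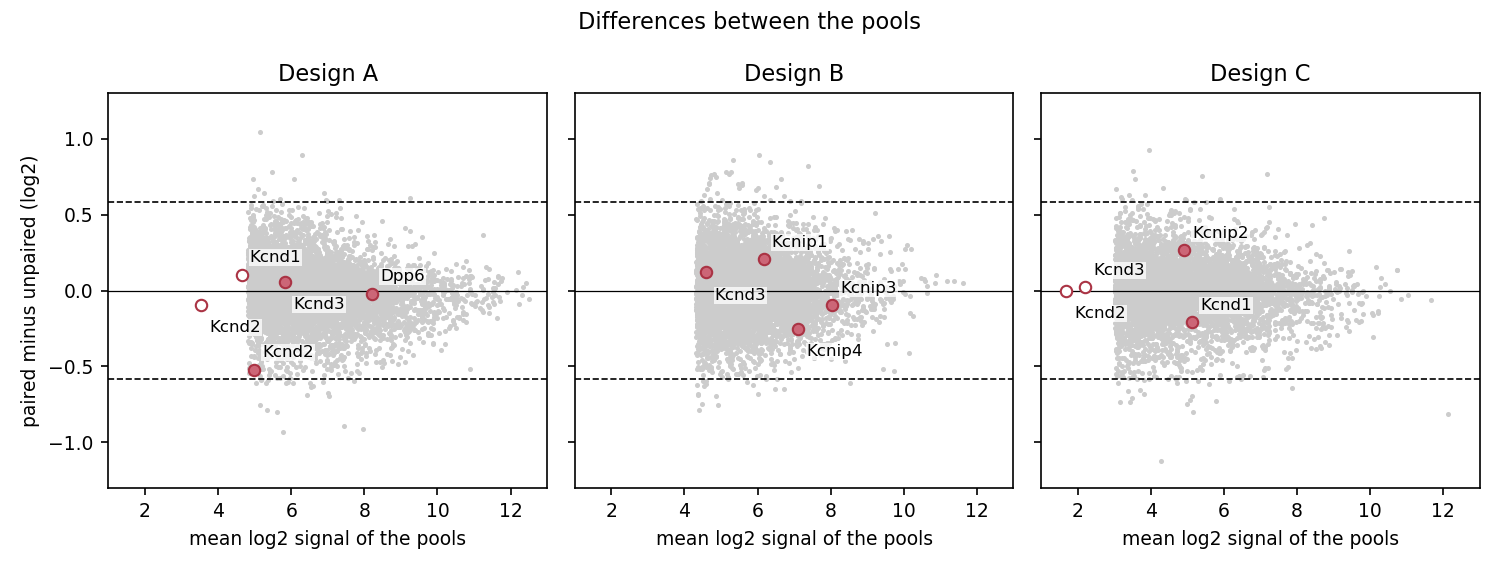
Paired minus unpaired log2 difference against mean log2 signal on the 3 array designs, for all kept probe sets (grey) and for the members (filled where kept, open where under the filter). Dashed lines mark 1.5-fold; all members lie between them, with the suffixed Kcnd2 probe set on design A lowest at -0.52.

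A second yardstick came from genes with 2 or more kept probe sets on a design, 2120 pairs, from which the SD of a single difference was 0.20. By this measure Kcnd2, Kcnip2, Kcnip4, Kcnip1 and the kept Kcnd1 probe set were each more than 1 SD from 0, and Kcnip3, Kcnd3 and Dpp6 were not. The Kcnd2 probe set was kept through its unpaired signal alone, so neither this measure nor its share below is support for a difference. For Kcnip2, Kcnip4, Kcnip1 and Kcnd1 such sizes were common. Of the kept probe sets of the same design, 84.8% differed less than Kcnip2 and 80.6% less than Kcnip4. For Kcnd1 the share was 76.0%, for Kcnip1 72.6% and for Kcnd2 98.7%. This SD leaves out error shared by the probe sets of an array and the spread between pools of mice. Only Kcnd3 had more than 1 kept probe set, so for the other 7 genes no second kept measurement exists. Over the 8 genes 3 were higher and 5 lower, with Kcnd2 entering through the probe set above and a median of -0.06 beside -0.0039 over all 10579 genes with a kept probe set.

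**Figure D3:**
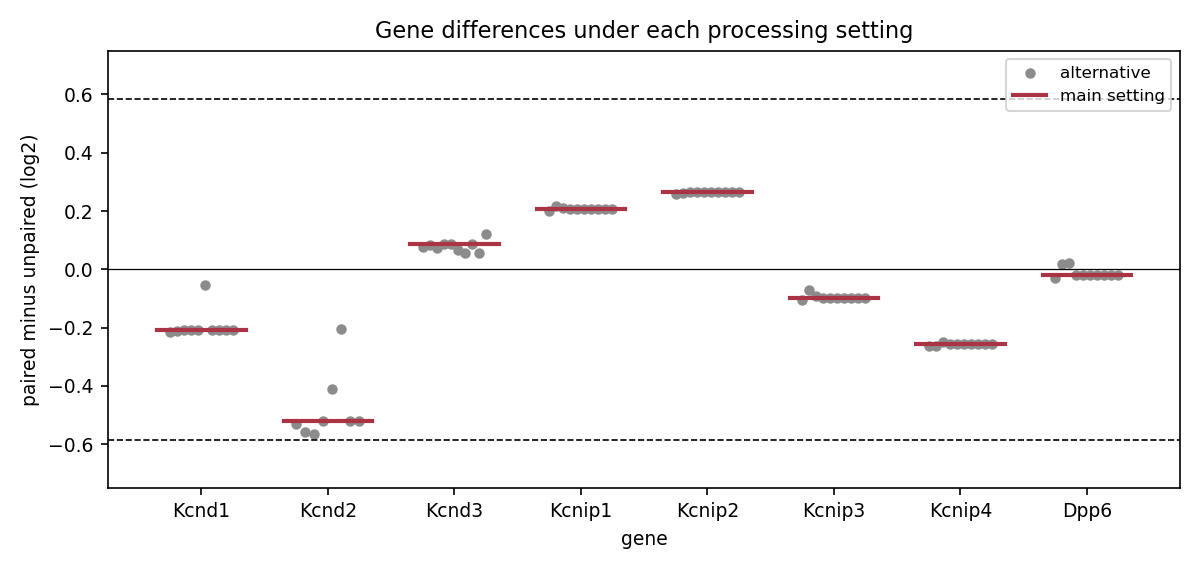
Paired minus unpaired log2 difference of each gene in the main processing (red bars) and under the alternatives that gave it a value (grey points); dashed lines mark 1.5-fold. Kcnd2 varied most with the setting, from -0.56 to -0.20, and stayed inside 1.5-fold.

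Proteins that share the complex or the current were compared from lists. Of 18 genes of auxiliary subunits, scaffolds and other fast-inactivating channels, 10 had a kept probe set, 6 higher and 4 lower, with a median of 0.05 and none past 1.5-fold. The scaffold gene Dlg4 (PSD-95) read 7.23 unpaired and 7.50 paired, a difference of 0.26, and its relative Dlg1 (SAP97) read 6.82 and 6.64, a difference of -0.17. Kcnab2, a cytoplasmic beta subunit of Kv1 channels, had -0.28 and -0.08 on its 2 probe sets. Kcna4, the gene of the fast-inactivating Kv1.4 channel, was below the floor in both pools.

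Of 9 calcium sensor genes related to the KChIPs 7 had a kept probe set. As means over a gene's probe sets all 7 were above 0 in the main processing, with a median of 0.15 and none past 1.5-fold, but 2 of their 10 kept probe sets were lower in the paired pool. Ncs1, the gene of a calcium sensor that can also bind Kv4 channels, had 0.37 on design A and -0.22 on B, and Vsnl1, the visinin-like gene, 0.39 on A and -0.20 on C. Hpcal4 read 6.21 and 6.52 on design A, a difference of 0.32, and Hpcal1 8.12 and 8.34 on a suffixed probe set, a difference of 0.22. Ncald, the neurocalcin delta gene, had 0.30 and 0.23 on design B. The median was 0.32 with design A alone (5 genes), 0.020 with B alone (2 genes) and -0.028 with C alone (2 genes). Both its size and its direction thus differed by design, but the designs also held different genes of the list. The KChIPs, with 2 of 4 higher, are set beside them as values, and the difference between the lists was not tested.

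Of 15 enzymes known to act on Kv4 channels 8 had a kept probe set, 3 higher and 5 lower, with a median of -0.02. The kinase genes Fyn and Src stood at -0.29 and 0.15, and Prkaca, a catalytic subunit of protein kinase A, at -0.13 over probe sets that ranged from -0.51 to 0.13. Of 9 partners and targets of KChIP3 only 3 were measured above the filter, Nr4a1 at -0.14, Slc8a3 at 0.04 and Creb1 at 0.02, with a median of 0.02. Fos was below the floor in both pools and Pdyn, the dynorphin gene, was under the filter. Among 16 other potassium channel genes 6 were higher and 10 lower, with a median of -0.03. Kcna6 stood at -0.40 on its kept probe set, on design C, while its probe set on design A, under the filter, had 0.36. Kcnq3 stood at -0.32, and Kcnj10, the inward rectifier of glia, at 0.30. No gene of these lists passed 1.5-fold as the mean of its kept probe sets.

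**Figure D4:**
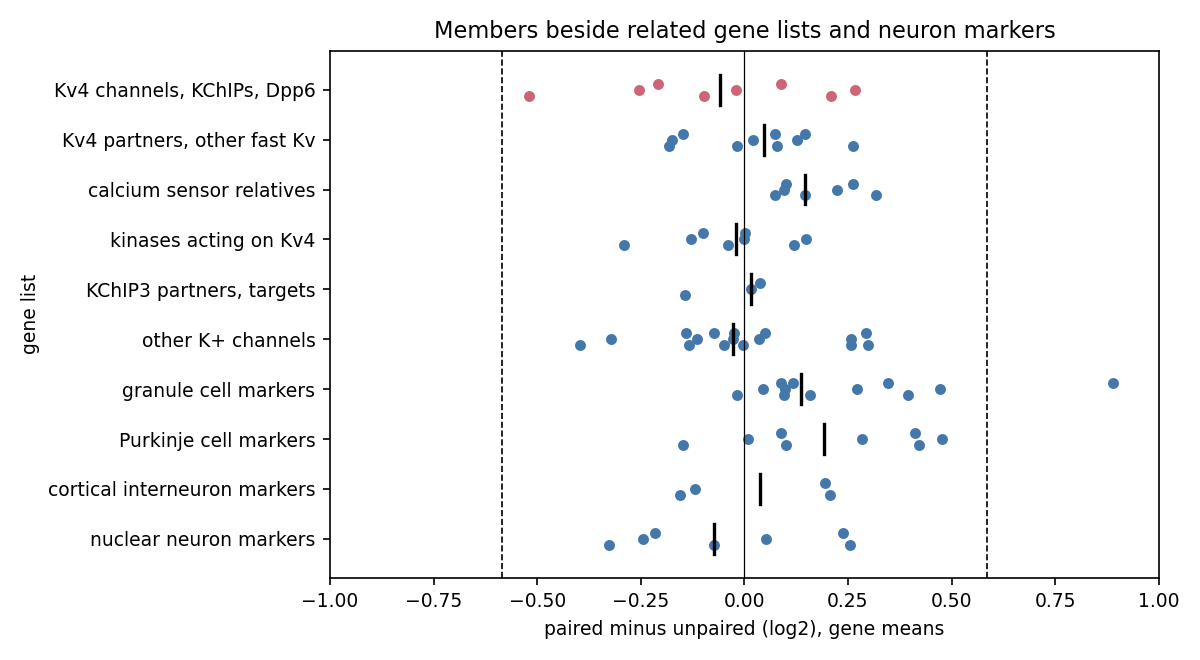
Gene mean of the paired minus unpaired log2 difference for the members (red), the related lists and 4 lists of neuron markers (blue). Short black bars are list medians and dashed lines mark 1.5-fold; Gabra6, at 0.89 among the granule cell markers, is the only gene outside them.

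The tissue label was set against cell type markers. Of 12 listed markers of the nuclear projection neurons 7 had a kept probe set. The neurofilament gene Nefh had a rank of 97.6%. Slc17a6, the vesicular glutamate transporter gene, had 85.3% on design B, with a difference of 0.85 there, past 1.5-fold. On design C its brightest probe set, with a suffix, had 99.9% and a difference of -0.0025. Another on C had 81.5% and -0.08. The transcription factor genes Lhx2, Lhx9, Tbr1 and Meis2 were all under the filter, with ranks of at most 43.2%. Irx3, another transcription factor gene of the list, was kept at a rank of 83.5%. It read 7.18 unpaired and 6.86 paired, a difference of -0.33. Markers of the cerebellar cortex were present too. Of 16 listed granule cell genes 12 were measured, and 11 of these were higher after paired training, with a median of 0.14 and summed linear signals of 2152 unpaired and 2484 paired. Gabra6, a granule cell GABA receptor subunit, had the largest mean difference of the list, 0.89. Its suffixed probe set, 4.63 unpaired and 5.67 paired, passed the filter through the paired pool alone. The other Gabra6 probe set, without a suffix, read 5.71 and 6.45 on design A, above the filter in both pools. Its difference was 0.73, past 1.5-fold. Purkinje cell markers were higher, as gene means, in 7 of 8 measured genes of 14 listed. Their median was 0.19 and their summed signals were 1024 and 1117. Over kept probe sets Rora ranged from -0.14 to 0.34 and Pcp2 from -0.08 to 0.09. Nuclear projection neuron markers were higher in 3 of the 7, with a median of -0.07 and summed signals of 8118 and 7887. Markers of cortical interneurons and Golgi cells were higher in 2 of 4 measured genes of 10 listed, with a median of 0.04 and summed signals of 6874 and 6626. Most of each of these sums is Pvalb, whose brightest probe set read 12.53 unpaired and 12.47 paired on design A. Which cells the Pvalb signal came from was not tested, so these sums are no measure of cortical interneurons. The part of cell makeup in the differences of the Kv4, KChIP and Dpp6 genes was not tested. In pooled tissue fewer cells of a type and less RNA per cell cannot be told apart.

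Oligodendrocyte markers were lower in 6 of 8 measured genes, with a median of -0.08 and summed linear signals of 10261 unpaired and 9726 paired. Astrocyte and Bergmann glia markers were lower in 5 of 9 with a median of -0.10, while their summed signals were 7905 and 8261. That median turned sign with the brightest probe set (0.022), without suffixed probe sets (0.027) and on design B alone (0.10). Microglia had a median of 0.05 over 6 genes, endothelial and mural cells -0.03 over 4 and choroid plexus and ependyma 0.08 over 3. None of these lists held a gene past 1.5-fold.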

How the data were processed

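The data are arrays of 1 colour, hybridised with biotin-labelled cRNA of 1 tissue pool per training group, per the labels' protocols. The letters A, B and C in the labels were read as array designs, since their value tables hold different probe sets. The authors deposited values that were taken as log2 signals because of their range (1.40 to 12.53 without controls); how the authors summarized, background-corrected and normalized them is not given in the sources used here. Probe sets were named by the platform annotation, and symbols were updated through gene identifiers (RefSeq, GRCm38.p6) (29044 of 29131 with 1 symbol matched). Control probe sets (198) were left out. The paired array of a design was shifted to a median difference of 0 over its brighter probe sets (mean signal from the median up), signals under the 25th percentile were set to it, and probe sets with a mean at or above the median were kept. Signals in the text are those before the floor. A gene's value is the mean over its kept probe sets. Of each related list the 3 genes with the largest difference were named; Dpp10, Kcna4, Ncs1, Vsnl1, Fos, Pdyn and the marker genes were named after their values were seen. The members and lists were chosen with earlier results of these data known. The steps were checked on simulated data. Analyses used Python 3.11.15, pandas 2.3.3 and statsmodels 0.14.6 (loess). The number of arrays limits the precision.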

Additional observations from a re-analysis of the deposited data

How the results depend on the processing

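Under the 12 alternatives (scaling absent, quantile or loess, floor absent or at the median, filter absent or at the 75th percentile, the brightest probe set, no suffixed probe sets, and each design alone) the number of member probe sets past 1.5-fold was 0 each time. The share of all kept probe sets past it was between 0.521% and 0.822%. Of 78 comparisons of the 8 gene values with an alternative, 2 had the opposite sign, both for Dpp6, under quantile and loess scaling. Many of the 78 could not differ from the main value. Kcnip1, Kcnip2, Kcnip3, Kcnip4 and Dpp6 each had 1 probe set, kept at every filter, so only the scaling settings could change their values. The count is therefore no measure of stability. A value was taken as moved when it shifted past a limit set from the SD of a single difference, 0.20. For a list, the limit was that SD over the square root of its number of genes in the main processing. For a single gene, it was that SD over the square root of its number of kept probe sets. Kcnd2 moved with no signal filter, to -0.20 over its 3 probe sets, and stood at -0.41 with the floor at the median; without suffixed probe sets it had no kept value. The median of the 8 genes, -0.06, was 0.011 on design B alone (4 genes) and 0.029 on design C alone (2 genes). The median of the list of auxiliary subunits and fast channels became -0.13 on design C alone, and that of other potassium channels 0.056 on design B alone. Calcium sensor relatives had 0.32 (5 genes), 0.020 (2 genes) and -0.028 (2 genes) on designs A, B and C alone. Partners and targets of KChIP3 had -0.10 with the filter at the 75th percentile and -0.24 on design B alone, each over 2 genes. Medians of cell type markers also shifted. Granule cell markers ranged from 0.051 to 0.31, Purkinje cells from -0.14 (1 gene, design B alone) to 0.48, nuclear projection neurons from -0.18 to 0.044, cortical interneurons from 0.020 to 0.19, astrocytes from -0.29 to 0.10, oligodendrocytes from -0.51 (1 gene, design C alone) to -0.033, endothelial and mural cells from -0.29 to 0.085, and microglia from 0.040 to 0.25. Single designs hold fewer genes by construction, and other causes were not tested. No paired analysis was possible because each group has 1 array per design, and for the same reason no replicate could be left out.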
